A study of Mus musculus with 12 samples.

Results

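Gene expression of cells sorted as bone marrow endothelial cells was compared between mice with 1 of 3 cardiovascular diseases and naive mice. The question was which transcripts move the same way in hypertension, in atherosclerosis and after myocardial infarction (MI). Blood cell genes outweighed endothelial markers in every library, with values given below. All 12 of the 12 libraries of the series were used, 3 in each of 4 groups. The quantity examined is the mean of the 3 disease groups, each given the same weight, minus the mean of the controls, in 1 model of all libraries. A gene was taken as shared when its log2 fold change against controls had the same sign in each disease and the difference of the means passed the test.

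The control, hypertension and MI mice were C57BL/6J, and the atherosclerosis group carried the Apoe(tm1Unc) knockout allele. All mice were 20 weeks old. Controls were naive, so they had no pump, no surgery and no knockout. The HTN group received angiotensin II, a peptide that constricts vessels and raises blood pressure, which in the methods of the study runs from implanted pumps for 8 weeks. The ApoE group lacks apolipoprotein E, the ligand by which the liver takes lipoprotein remnants out of the circulation, and the methods give it a western-type diet for 10 weeks. The knockout and the diet cannot be told apart here. The MI group is labelled as collected 2 days after acute infarction, although the text of the study gives a later day. The replicate numbers are 2, 3 and 4 in every group, and the labels do not tie equal numbers to a shared day or batch.

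Bone marrow endothelial cells line the arterioles and the wide, leaky sinusoids of the marrow. They supply blood stem cells with retention factors such as Cxcl12 and Kit ligand, and they form the wall that leukocytes cross to enter the blood. Macrophages of the marrow sit beside these vessels, engulf the nuclei that red cell precursors expel and recycle their iron. High blood pressure, high blood lipids and the inflammation after an infarct all reach these vessels through the circulation, and each of these diseases is known to raise the output of myeloid cells.

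Total counts per library lay between 17007088 and 25136936 (median 19419915). CPM are counts scaled to the size of the library. For single genes that size was TMM-scaled, and for the marker sums it was the library total. On the library totals, 3 counts correspond to from 0.119 to 0.176 CPM. This floor takes in counting error alone. Correlations of log2 CPM between pairs of libraries ran from 0.947 to 0.991 across genes. The gate of the study took cells without the blood cell markers CD45, TER-119 and CD41. The 24 endothelial marker genes were all detected and together held between 209 and 361 CPM in controls and between 224 and 391 in the disease libraries. *Cdh5*, the cadherin of endothelial junctions, measured between 2.00 and 4.19 CPM over the 12 libraries. Markers of 15 neutrophil genes summed to between 61200 and 80600 CPM in controls and between 35600 and 93200 in disease, and 14 erythroid genes to between 18200 and 30100 in controls and between 12000 and 44500 in disease. Blood cell genes thus took a larger share of the counts than the endothelial markers in every library, and their part in the results below was not tested beyond the covariate fits given. Of the 13 cell type marker lists, none had a sum that separated the 9 disease libraries from the 3 controls, and the smallest Benjamini-Hochberg adjusted p was 0.894 (exact two-sided permutation test of 9 against 3 libraries, where 0.00455 is the smallest p before adjustment). In such bulk samples, fewer cells of a type and less RNA per cell cannot be told apart.

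No gene passed the test in the mean of the 3 diseases. Of 15999 genes tested, 0 were higher (0%) and 0 were lower (0%) at an adjusted p under 0.05 (edgeR quasi-likelihood F-test, Benjamini-Hochberg). An unadjusted p under 0.05 was found for 337 genes, which is 2.11% of those tested, with 176 higher (1.1%) and 161 lower (1.01%). This is fewer than an even spread of p-values would place there. The number of calls depended on the tool. The likelihood-ratio test of edgeR, the test the study states for its own differential expression, called 2 genes higher and 7 lower. Of these, 2 and 5 had the same sign in each disease. DESeq2 called 3 higher and 5 lower, of which 3 and 4 had the same sign. The genes called by either tool with the same sign in each disease were *Ccdc148*, *Cd5l* and *Vsig4* on the higher side and the immunoglobulin segments *Ighv11-2*, *Igkv14-100*, *Igkv8-27*, *Igkv14-126* and *Ighv5-2* on the lower side.

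Small p-values were scarce in the mean contrast. Genes with an unadjusted p under 0.05 filled the smallest of the 20 equal bins, with 337 genes against 450 in the next bin and between 571 and 931 in the others. The test of whether HTN, ApoE and MI differ from each other behaved in the opposite way, with 1575 genes in its first bin and 498 in its last.

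**Figure D1:**
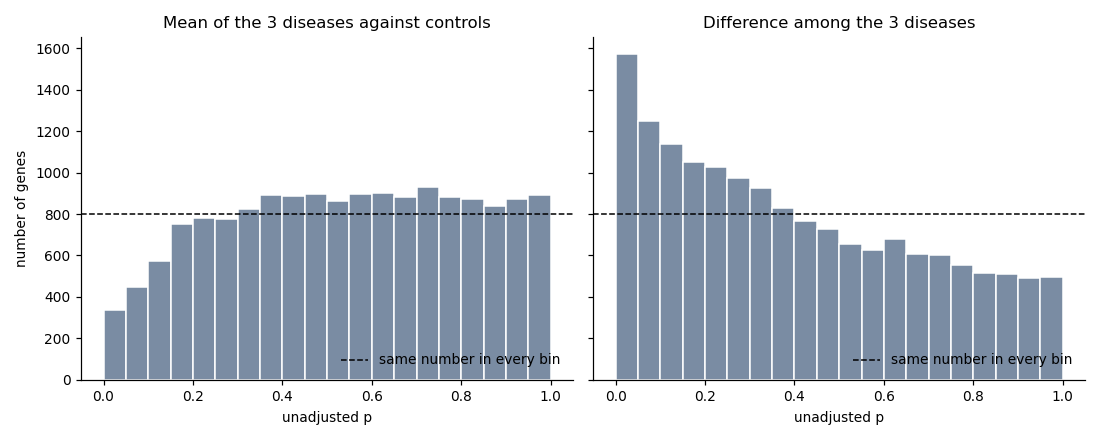
Histograms of unadjusted p (x axis, 20 equal bins) against the number of genes (y axis) for 15999 genes, with the mean of the 3 diseases against controls on the left and the difference among the 3 diseases on the right. The first bin holds 337 genes on the left and 1575 on the right, and the dashed line marks the same number in every bin.

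Each disease was measured against the same 3 control libraries, so a control library that is low for a gene lifts that gene in all 3 diseases at once. For this reason the number of genes with the same sign in all 3 is given only as a count. A log2 fold change above 0 in each disease was seen for 2893 genes (18.1%), and one below 0 for 2878 genes (18%). With an unadjusted p under 0.05 for the mean as well, 159 genes were higher (0.994%) and 150 lower (0.938%). The stricter pattern, in which all 9 disease libraries lie above all 3 controls, held for 19 genes (0.119%), and the reverse pattern held for 23 genes (0.144%).

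*Apoe*, the gene deleted in the atherosclerosis group, checks the labels and also came nearest to the threshold. It lies on chromosome 7 from 19696109 to 19699188 (GRCm38). Controls measured 731, 717 and 894 CPM, HTN libraries 905, 713 and 450, ApoE libraries 9.78, 7.28 and 14.8, and MI libraries 1500 (MI2), 744 and 550. The ApoE libraries were the 3 lowest of the 12, and the HTN and MI values overlapped controls. The mean over diseases was 2.04 ± 0.27 (SE) lower on the log2 scale, a log2 fold change of -2.04 with an adjusted p of 0.0631 (edgeR quasi-likelihood test, Benjamini-Hochberg). The per-disease values were -6.20 in ApoE, -0.18 in HTN and 0.26 after MI. Without the ApoE libraries the mean of the other 2 diseases was 0.04 above controls.

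*Ceacam19* and *Apoc4* were chosen after their values were seen. *Ceacam19*, a near neighbor of *Apoe* on chromosome 7, was not detected in the 3 ApoE libraries, where a count of 0 allows at most 0.176 CPM at the depths of the series. It measured between 0.392 and 1.84 CPM in controls and between 0.552 and 1.66 in HTN and MI. *Apoc4*, an apolipoprotein gene just beside *Apoe*, was near the floor in controls (0.112, 0 and 0 CPM) and in HTN (0.0908, 0.0438 and 0.0501) and measured 1.07, 1.70 and 0.56 CPM in the ApoE libraries. Both rank among the first 51 genes by p. *Ceacam19* differed in sign between the diseases, and the MI libraries of *Apoc4* held between 0.166 and 0.29 CPM, above controls that were at or under the floor.

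Among the genes that lead the list on the higher side, *Cd5l* and *Vsig4* are genes of resident macrophages, and both had their largest values in the ApoE group. The other leading genes on that side, *Ccdc148*, *Ube2o*, *Epb41*, *Dnah12*, *Gata2*, *Nacad*, *Krt222* and *Chst1*, are described further below with other functions. *Gpnmb*, a macrophage gene chosen after its values were seen, lay on the lower side, with a log2 fold change of -1.32. *Cd5l* encodes a secreted protein of tissue macrophages that limits their apoptosis and binds lipids (chromosome 3, 87357881 to 87371073). Its controls measured 11.5, 8.12 and 15.6 CPM, against 24.9, 16.6 and 15.6 in HTN, 43.2, 71.5 and 49.8 in ApoE and 27.4, 19.7 and 12.7 after MI. The ApoE libraries lay above every other library, while HTN4 equalled the highest control and MI4 fell within the control range. The log2 fold change of the mean was 1.22 ± 0.27 (SE, 95% interval 0.64 to 1.81), with 0.69 in HTN, 2.22 in ApoE and 0.76 after MI. Its adjusted p was 1 in the quasi-likelihood test and 0.0128 in DESeq2.

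*Vsig4*, a complement receptor of resident macrophages, lies on chromosome X from 96247203 to 96293438. Control libraries held 0.0561, 0.217 and 0.427 CPM, or 1, 4 and 11 counts, so its fold rests on few reads. The HTN values were 0.953, 0.438 and 0.30 CPM, the ApoE values 6.23, 14.0 and 2.34, and the MI values 0.939, 0.90 and 0.869. The ApoE and MI libraries lay above all controls and the HTN libraries overlapped them. Its log2 fold changes were 1.17 ± 0.76 (SE) in HTN, 4.89 ± 0.71 in ApoE and 1.84 ± 0.75 after MI, and the 3 diseases differed from each other (edgeR quasi-likelihood test, adjusted p = 0.0369). It is the single one of the 24 genes that differed among diseases to have the same sign in all 3.

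The genes named here and in the next paragraph were chosen after their values were seen, and *Fcna*, *Timd4* and *Ccl8* each had the largest mean change in ApoE. *Fcna* (ficolin A, a lectin that starts complement activation) had controls of 33.9, 24.3 and 38.1 CPM, and values of 69.8, 41.2 and 44.2 in HTN, 82.6, 94.7 and 50.7 in ApoE and 50.7, 45.0 and 31.5 after MI. *Timd4*, which binds phosphatidylserine on dying cells, measured 0.729, 0.271 and 0.931 CPM in controls and between 0.601 and 4.29 in the disease libraries. The chemokine *Ccl8* had 1.29, 0.379 and 0.698 CPM in controls, 2.09, 2.98 and 0.851 in HTN, 3.60, 3.00 and 2.14 in ApoE and 1.16, 3.39 and 2.20 after MI. For each of these genes at least 1 disease library lay within the control range. Log2 fold changes of the mean were 0.78 ± 0.24 (SE) for *Fcna*, 1.36 ± 0.44 for *Timd4* and 1.58 ± 0.47 for *Ccl8*, with an adjusted p of 1 each.

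The B cell chemokine *Cxcl13* was at 0, 3 and 1 counts in controls, at or under the floor, and between 0.11 and 1.65 CPM in disease, so no fold is given. *Itgad*, the integrin alpha D chain of splenic and marrow macrophages, had controls between 2.00 and 3.10 CPM and disease values between 2.90 and 7.17, with log2 fold changes of 0.48 in HTN, 1.11 in ApoE and 0.45 after MI. *C4b*, a complement component, measured 1.18, 1.46 and 2.09 CPM in controls and between 1.75 and 3.81 in disease, with 0.79, 1.10 and 0.79 in HTN, ApoE and MI.

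Over the whole macrophage marker list, 14 genes were tested and 0 passed. Log2 fold changes above 0 in all 3 diseases were found for 8 of them and below 0 for none, where 18.1% of all tested genes were above 0 throughout. The median log2 fold change of the list was 0.35 for the mean of diseases, against 0.00115 over all genes, and it was 0.26 in HTN, 0.74 in ApoE and 0.04 after MI. *C1qa*, a chain of the complement starter C1q, had controls of 36.0, 27.3 and 28.6 CPM and MI values of 32.5, 33.7 and 28.2, within the control range, while HTN values were 46.2, 32.9 and 39.1 and ApoE values 60.1, 62.7 and 57.7. *C1qc* had controls between 140 and 150 CPM, and its HTN and ApoE libraries, between 195 and 279, lay above all of them. Its MI libraries, between 129 and 187, reached both below and above the control range. *Hmox1* and *Slc40a1*, the heme oxygenase and the iron exporter with which macrophages recycle red cell iron, had log2 fold changes of 0.14 ± 0.45 and 0.29 ± 0.23 (SE). The summed list spanned 1320 to 1660 CPM in controls and 1300 to 2310 in disease. With the macrophage share as a covariate, 0 genes were called by the quasi-likelihood test, and 158 higher and 188 lower had an unadjusted p under 0.05.

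**Figure D2:**
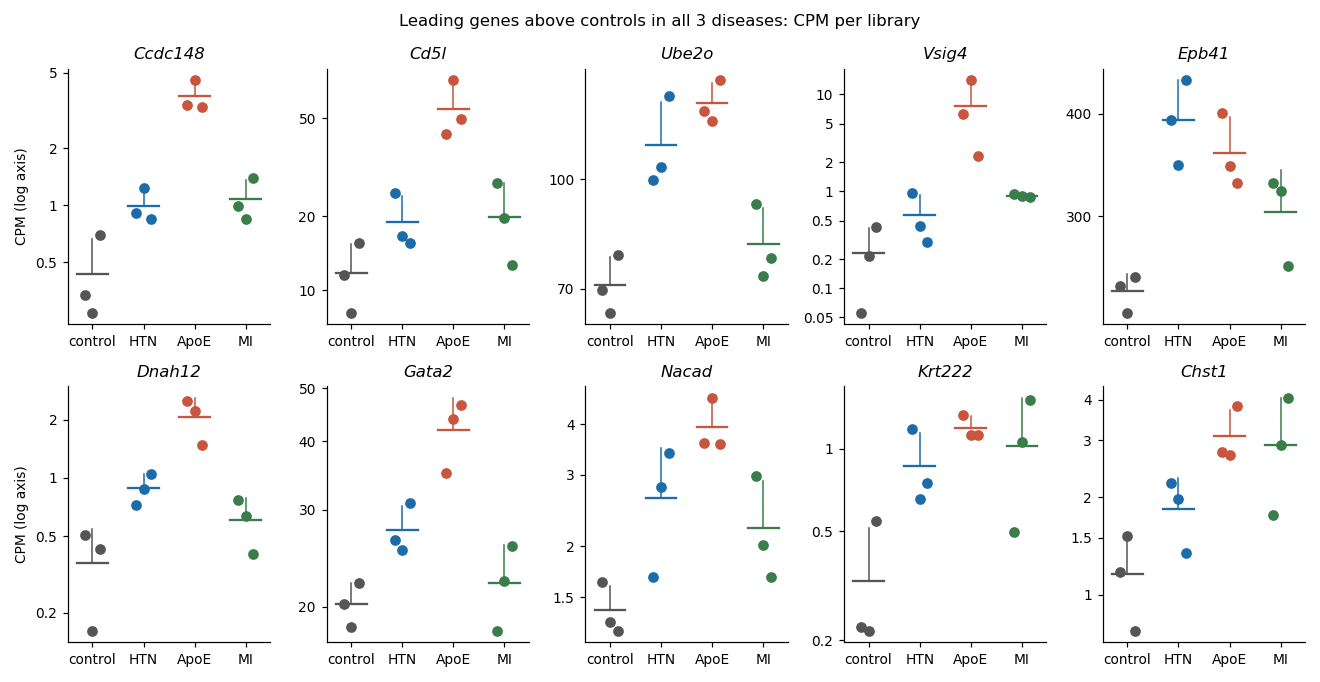
CPM on log axes (y) of the 10 leading genes above controls in all 3 diseases, by group (x), with 1 point per library, a horizontal line at the group mean and a bar of 1 SD above it (n = 3). For *Ccdc148*, *Epb41* and *Nacad* every disease library lies above every control. For *Cd5l*, *Vsig4* and *Gata2*, among others, the ApoE points are the highest.

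The gene of smallest p with the same sign in all 3 was *Ccdc148*, which encodes a coiled-coil protein (chromosome 2, 58821070 to 59160683). Controls measured 0.336, 0.271 and 0.698 CPM, HTN libraries 0.908, 1.23 and 0.851, ApoE libraries 3.38, 4.58 and 3.31, and MI libraries 0.994, 0.847 and 1.39. All 9 disease libraries lay above the 3 controls. Its log2 fold change was 1.81 ± 0.34 (SE, 95% interval 1.07 to 2.55), with 1.14, 3.04 and 1.25 in HTN, ApoE and MI. The unadjusted p was 0.000139 and the adjusted p 1 in the quasi-likelihood test, against adjusted p values of 0.00618 in the likelihood-ratio test and 0.0128 in DESeq2. Leaving out single libraries moved its log2 fold change between 1.57 and 2.37. The gene spans 4 annotated models, 2 of them on the same strand, whose reads cannot be told apart from its own here.

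*Ube2o*, *Epb41* and *Gata2* come next on the higher side. *Ube2o* is a ubiquitin ligase that clears proteins and ribosomes as red cells mature (chromosome 11, 116537740 to 116581447). In controls it measured 69.8, 64.8 and 78.1 CPM, in HTN 99.9, 104 and 131, in ApoE 125, 121 and 138, and after MI 92.2, 73.0 and 77.5. The HTN and ApoE libraries lay above all controls and 2 MI libraries fell within their range. The log2 fold change was 0.56 ± 0.13 (SE), with 0.65 in HTN, 0.85 in ApoE and 0.19 after MI.

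*Epb41*, protein 4.1 of the red cell membrane skeleton, lies on chromosome 4 from 131923413 to 132075321. Its controls held 247, 229 and 253 CPM, below all 9 disease libraries, which held 393, 346 and 439 in HTN, 401, 345 and 329 in ApoE and 329, 322 and 261 after MI. The lowest disease library and the highest control were 261 and 253 CPM. Its log2 fold change was 0.53 ± 0.13 (SE, 95% interval 0.24 to 0.81), a 1.44-fold difference, and over the single-library exclusions it stayed between 0.48 and 0.56.

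*Gata2*, a transcription factor of stem cells, mast cells and endothelium (chromosome 6, 88193891 to 88207032), had controls of 20.2, 18.4 and 22.1 CPM. The HTN values were 26.5, 25.4 and 30.9, the ApoE values 35.0, 44.0 and 46.6, and the MI values 18.1, 22.3 and 25.8. The MI libraries overlapped controls and the other 6 did not. The log2 fold change was 0.54 ± 0.14 (SE), falling to 0.29 when the ApoE libraries were left out. Of 11 stem and progenitor cell genes, 2 were above 0 in all 3 diseases and 1 below, with a median of 0.09, where 18.1% of all tested genes were above throughout.

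Among 14 erythroid markers tested, 6 were above 0 in all 3 diseases and 0 below, against 18.1% and 18% of all tested genes. Their median log2 fold change was 0.20. Per disease the median was 0.17 in HTN, 0.37 in ApoE and 0.14 after MI. *Tfrc*, the transferrin receptor that brings iron into the cell, measured 264, 284 and 385 CPM in controls and between 274 and 626 in disease, a log2 difference of 0.47 ± 0.22 (SE). The summed erythroid list did not move with the diseases in this way, since its mean log2 difference was -0.00258, and it ranged more widely in the ApoE group (12000 to 44500 CPM) than in controls. Of 22 genes of heme synthesis and iron handling, 9 were above 0 in all 3 diseases and 2 below. The shares over all tested genes were again 18.1% and 18%, and the median of the list was 0.15. *Slc25a37*, the mitochondrial iron importer of erythroblasts, had a log2 fold change of 0.35 ± 0.16 (SE), with 0.50 in HTN, 0.50 in ApoE and 0.04 after MI. With the erythroid share as a covariate, *Ighv14-3* was called higher, and *Igkv14-126* and *Apoe* lower. In the same fit *Epb41* had a log2 fold change of 0.52 and *Ube2o* one of 0.56, with an adjusted p of 0.648 and 0.626, and neither was called with or without the covariate.

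The remaining genes named on the higher side belong to no common pathway. *Dnah12*, an axonemal dynein heavy chain, had controls of 0.505, 0.162 and 0.427 CPM, HTN values of 0.726, 0.876 and 1.05, ApoE values of 2.49, 2.23 and 1.48 and MI values of 0.773, 0.635 and 0.405. Its log2 fold change was 1.48 ± 0.38 (SE), and 1 MI library lay within the control range. *Nacad*, a relative of the alpha chain of the nascent polypeptide complex, measured 1.63, 1.30 and 1.24 CPM in controls, 1.68, 2.80 and 3.40 in HTN, 3.60, 4.64 and 3.57 in ApoE and 2.98, 2.01 and 1.68 after MI. No disease library reached down to the controls, although 1.68 and 1.63 CPM are close, and the log2 fold change was 1.03 ± 0.28 (SE).

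*Krt222*, a keratin-like gene, was among the most even of the leading genes. It had controls of 0.224, 0.217 and 0.543 CPM, and log2 fold changes of 1.32 in HTN, 1.79 in ApoE and 1.56 after MI, with SE between 0.48 and 0.49. A single MI library at 0.497 CPM lay within the control range. *Chst1*, a sulfotransferase that modifies keratan sulfate and the ligands of selectins, had controls between 0.776 and 1.52 CPM and disease libraries between 1.35 and 4.05, with log2 fold changes of 0.69, 1.43 and 1.34. *Fam213a*, an antioxidant protein named after its values were seen, had controls between 97.1 and 136 CPM and disease libraries between 130 and 264, with log2 fold changes of 0.54, 0.88 and 0.61 in HTN, ApoE and MI.

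**Figure D3:**
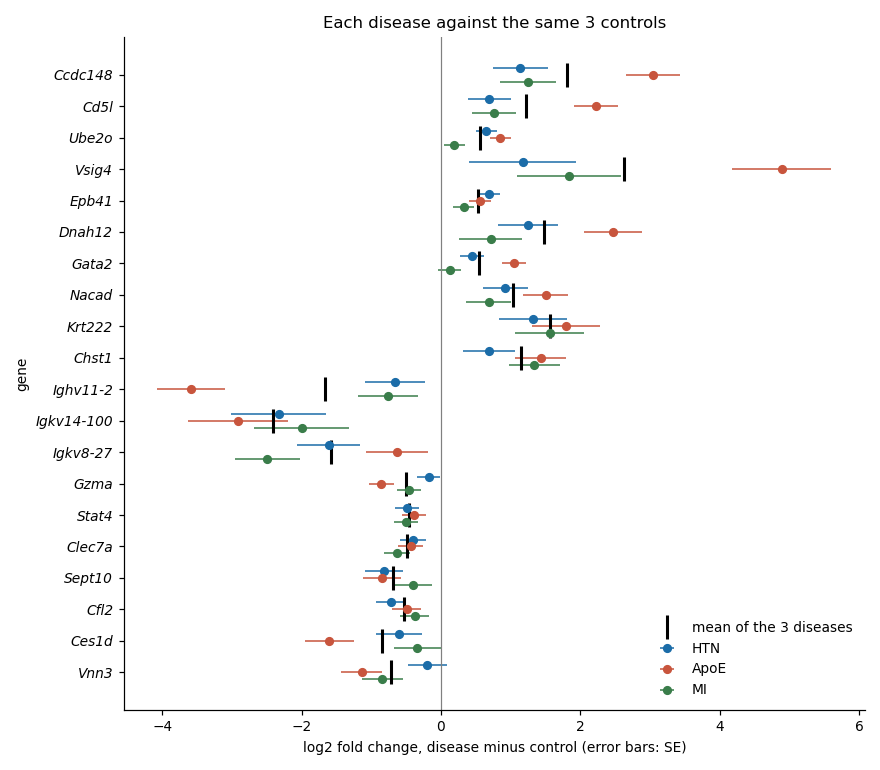
Log2 fold change of each disease against the same 3 controls (x axis, error bars are SE, n = 3 libraries per group) for the 20 leading genes (y axis), with the mean of the diseases as a black tick. The ApoE point is the farthest from 0 for *Vsig4* (4.89) and *Ighv11-2* (-3.58), while the 3 diseases lie close together for *Stat4* and *Krt222*.

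On the lower side the first genes by p are immunoglobulin variable segments, which B cells and plasma cells join to make antibody chains. *Ighv11-2*, a heavy chain segment common in natural antibodies of B-1 cells (chromosome 12, 114048241 to 114048812), had controls of 44.8, 76.0 and 14.3 CPM. In HTN it measured 25.5, 31.4 and 28.3, in ApoE 3.87, 2.23 and 5.14, and after MI 21.2, 31.1 and 27.3. The HTN and MI libraries lay inside the control range and the ApoE libraries below it. Its log2 fold change was -1.67 ± 0.33 (SE), with -0.66 in HTN, -3.58 in ApoE and -0.76 after MI. The adjusted p was 1, and it became 0.0134 when control replicate 4, the lowest of the controls, was left out. Without control replicate 3, the highest, the log2 fold change was -1.06.

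*Igkv14-100*, a light chain segment on chromosome 6 from 68519012 to 68519477, measured 4.48, 5.09 and 8.50 CPM in controls. All disease libraries lay below, at 0.772, 0.832 and 2.00 in HTN, 0.445, 1.82 and 0.204 in ApoE and 2.87, 1.11 and 0.521 after MI. The log2 fold change was -2.41 ± 0.49 (SE, 95% interval -3.48 to -1.35), with -2.33, -2.91 and -2.0 in the 3 diseases, and its adjusted p was 1 in the quasi-likelihood test and 0.0128 in DESeq2. *Igkv8-27* (chromosome 6, 70171809 to 70172270) had controls of 61.3, 35.4 and 46.0 CPM. Its HTN values were 15.6, 9.20 and 21.8, its MI values 6.79, 8.15 and 10.5, and its ApoE values 9.78, 37.1 and 45.3, of which 2 fell within the control range. The log2 fold change was -1.58 ± 0.34 (SE), and without the ApoE libraries it was -2.05 with an adjusted p of 0.0483.

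The immunoglobulin segments did not move in 1 direction as a class. Of 165 variable segments tested, 15 had an unadjusted p under 0.05 on the higher side and 15 on the lower side. Above 0 in all 3 diseases were 43 of them and below 0 were 44, against 18.1% and 18% of all tested genes. They made up 24% of the first 50 genes by p, of which 2 were higher and 10 lower, and 1.03% of all tested genes. Near-identical segments can share reads, which unique mapping discards, so single segments are uncertain. Among the first 50 genes by p, ApoE had the largest of the 3 changes for 37 (74%), against 36.4% of all tested genes. HTN had the largest for 5 and MI for 8. These shares describe genes chosen by the same contrast and carry no test.

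Lymphocyte genes followed on the lower side. *Gzma*, a serine protease of cytotoxic T and NK cell granules (chromosome 13, 113093825 to 113100981), had closely spaced controls of 12.9, 12.8 and 13 CPM. The HTN values were 13.3, 11.3 and 9.66, the ApoE values 6.72, 8.05 and 6.67, and the MI values 9.99, 9.31 and 8.98. Only HTN2 lay above the controls. Its log2 fold change was -0.49 ± 0.14 (SE), with -0.18, -0.85 and -0.45 in HTN, ApoE and MI. *Stat4*, the transcription factor downstream of interleukin 12 in T and NK cells (chromosome 1, 51987148 to 52107189), measured 16.4, 20.4 and 21.1 CPM in controls. All 9 disease libraries lay below, at 14.0, 14.3 and 13 in HTN, 13.8, 15.2 and 15.3 in ApoE and 10.8, 15.6 and 14.7 after MI. The 3 log2 fold changes were alike, at -0.49, -0.39 and -0.50, and the mean was -0.46 ± 0.14 (SE, 95% interval -0.75 to -0.17), a 1.37-fold difference.

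For the list of 12 T and NK cell genes, 5 were below 0 in all 3 diseases and 0 above, where 18% of all tested genes were below throughout, with a median of -0.16. *Klrb1c*, the NK1.1 receptor, had a log2 fold change of -0.33 ± 0.20 (SE) and *Nkg7*, a cytotoxic granule protein, one of -0.34 ± 0.21. The 12 genes summed to between 554 and 803 CPM in controls and between 368 and 709 in disease (exact two-sided permutation p = 0.15, adjusted p = 0.894 over 13 lists). Among 15 B and plasma cell genes, 5 were below 0 in all 3 diseases and 2 above, against 18% and 18.1% of all tested genes. *Vpreb1* and *Vpreb3*, parts of the surrogate light chain complex of precursor B cells, had log2 fold changes of -0.68 ± 0.31 and -0.61 ± 0.28 (SE). Without control replicate 2 these were -0.29 and -0.22, and *Nkg7* was at -0.14. The medians of the list were -0.02 in HTN, 0.10 in ApoE and -0.65 after MI, and -0.24 for the mean of diseases. The 15 genes summed to between 1480 and 1930 CPM in controls and between 1090 and 3010 in disease, and the mean log2 difference of the sum was 0.24, opposite in sign to the median.

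*Clec7a* encodes dectin-1, the receptor for fungal beta-glucan, and is annotated as a polymorphic pseudogene in the release used here (chromosome 6, 129461591 to 129472779). It measured 127, 171 and 168 CPM in controls, 139, 119 and 94.3 in HTN, 111, 96.3 and 136 in ApoE and 93.7, 109 and 97.4 after MI. The MI libraries lay below all controls, and 1 HTN and 1 ApoE library did not. The log2 fold changes were -0.40, -0.44 and -0.63, and the mean was -0.49 ± 0.15 (SE). *Ptafr*, the receptor for platelet activating factor, was named after its values were seen because all 9 disease libraries (15.8 to 21.3 CPM) lay below the controls (22.1 to 25.2), with a log2 fold change of -0.33 ± 0.11 (SE). *Gpnmb*, a glycoprotein of lipid-loaded macrophages and osteoclasts, was also chosen after its values were seen. It had controls between 32.7 and 39.0 CPM and disease libraries between 1.82 and 36.6, with log2 fold changes of -0.69 in HTN, -2.69 in ApoE and -0.58 after MI.

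The other leading genes on the lower side were *Sept10*, *Cfl2*, *Ces1d* and *Vnn3*. *Sept10*, a septin of the cytoskeleton, measured 9.42, 8.18 and 11 CPM in controls, 6.81, 5.34 and 4.06 in HTN, 4.27, 7.46 and 4.23 in ApoE and 8.23, 6.40 and 7.07 after MI, so that MI2 alone reached the control range. The mean differed by a log2 value of -0.69 ± 0.21 (SE). For *Cfl2*, a cofilin that severs actin filaments, controls of 14.3, 13.6 and 17 CPM lay above all disease libraries, which measured 9.08, 9.02 and 9.11 in HTN, 7.43, 11.7 and 12.8 in ApoE and 13.2, 10.7 and 10.5 after MI. This gave a log2 fold change of -0.53 ± 0.16 (SE), with -0.72, -0.49 and -0.38 in the 3 diseases. *Ces1d*, a carboxylesterase that hydrolyzes triglyceride, was lowest in ApoE (0.756, 1.59 and 1.73 CPM, against 3.08, 4.44 and 4.73 in controls), with a log2 fold change of -0.85 ± 0.26 (SE). *Vnn3*, a pantetheinase that releases vitamin B5, had -0.72 ± 0.22 (SE), and its HTN libraries lay within the control range of 4.71 to 9.15 CPM.

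**Figure D4:**
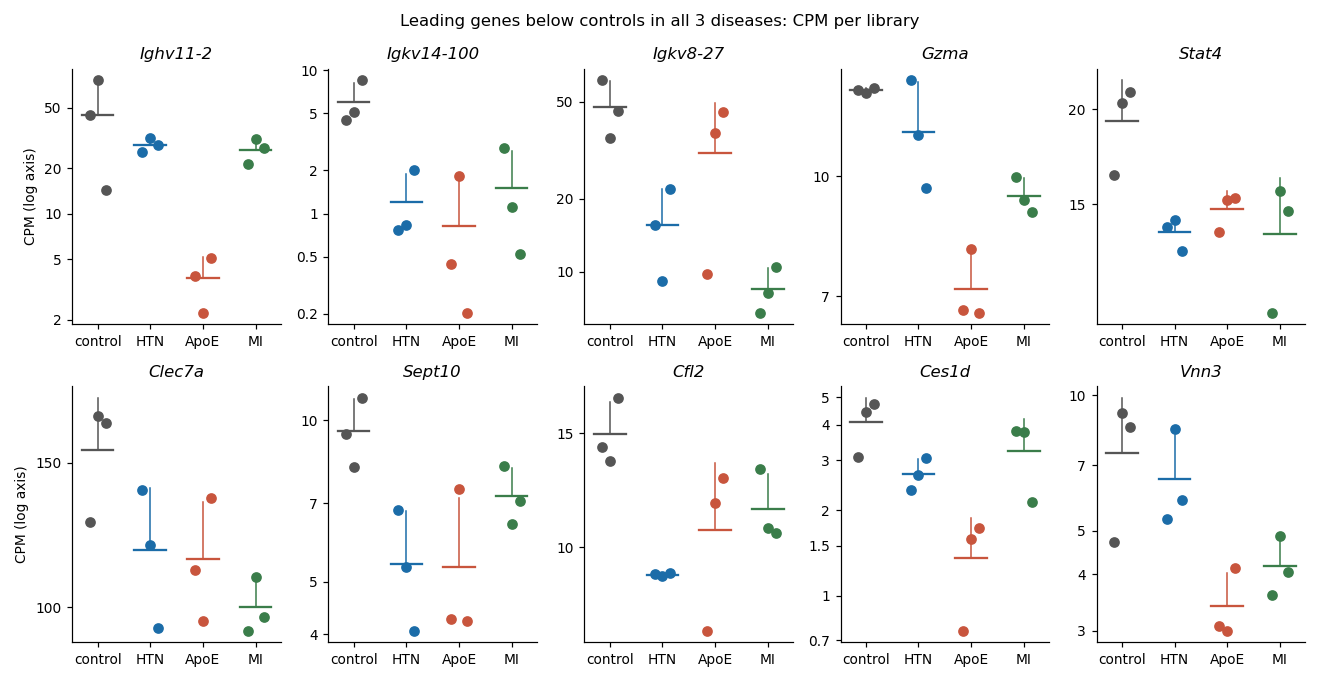
CPM on log axes (y) of the 10 leading genes below controls in all 3 diseases, by group (x), with 1 point per library, a horizontal line at the group mean and a bar of 1 SD above it (n = 3). All 9 disease libraries lie below all 3 controls for *Igkv14-100*, *Stat4* and *Cfl2*, while HTN and MI overlap controls for *Ighv11-2*.

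Further genes whose 9 disease libraries lay wholly on 1 side of the controls, picked after their values were seen, had mostly small differences. *Dusp8*, a phosphatase of stress-activated kinases, had controls between 19.5 and 20.4 CPM and disease libraries between 20.9 and 45.3. *Slc7a1*, the transporter of arginine and lysine, had controls between 23.3 and 23.7 CPM and disease libraries between 25.4 and 44.9, a log2 fold change of 0.39 ± 0.16 (SE). *Cacna1c*, the pore of the L-type calcium channel, had the largest log2 fold change among these, 2.60 ± 0.82 (SE), but its controls were at 0.224, 0.162 and 0 CPM. On the lower side, *Zfyve16*, an endosomal protein, had controls between 15.1 and 16.9 CPM and disease libraries between 9.83 and 14.5. *Itpr3*, a calcium release channel of the endoplasmic reticulum, had controls between 7.90 and 8.88 CPM and disease libraries between 5.27 and 7.58. *Plxna3*, a semaphorin receptor, had log2 fold changes of -0.90, -0.93 and -0.97 in HTN, ApoE and MI, with controls between 0.543 and 0.65 CPM and disease libraries between 0.227 and 0.407.

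Endothelial genes were near 0 in the mean of the diseases. Of 24 endothelial markers, 4 were above 0 in all 3 diseases and 6 below, against 18.1% and 18% of all tested genes. An unadjusted p under 0.05 was seen for 0 of them, and their median was -0.04. By disease their medians were -0.28 in HTN, 0.000606 in ApoE and 0.0127 after MI. How far the lists in this paragraph and the next reflect endothelial cells was not tested. *Cdh5* had a log2 fold change of -0.20 ± 0.22 (SE, 95% interval -0.68 to 0.29) and *Pecam1*, which encodes the CD31 used in the gate, one of 0.04 ± 0.12 (95% interval -0.22 to 0.31). *Emcn*, endomucin of sinusoids and veins, had a log2 fold change of -0.54 ± 0.39 (SE) and *Stab2*, the scavenger receptor of sinusoids, one of 0.28 ± 0.18. Without control replicate 4 *Emcn* was at -0.18 and *Cdh5* at 0.02, and without control replicate 3 *Pecam1* was at -0.03. Of 23 genes of angiogenesis and VEGF signaling, 3 were above 0 throughout and 9 below, and *Angpt2*, the angiopoietin that loosens vessels, had 0.64 ± 0.26 (SE), with 0.47, 1.03 and 0.43 in the 3 diseases. In the list of endothelial adhesion molecules, *Icam2*, a ligand of leukocyte integrins, had controls of 33.8, 30.8 and 34.8 CPM and disease libraries between 16.2 and 31.0. That is a log2 fold change of -0.48 ± 0.19 (SE), with -0.61, -0.30 and -0.52 in HTN, ApoE and MI.

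Genes of vascular tone and of cytokine signaling were mixed. *Ptgs2*, the inducible cyclooxygenase, had controls of 18.3, 28.6 and 22.5 CPM and disease libraries between 8.67 and 26.2, with a log2 fold change of -0.62 ± 0.26 (SE). *Ccl2*, the chemokine that draws monocytes out of the marrow, had -0.43 ± 0.16, with -0.12 in HTN, -0.51 in ApoE and -0.66 after MI. *Il6*, a cytokine that acts on blood progenitors, had controls of 2.07, 1.79 and 1.75 CPM, HTN values of 2.09, 3.68 and 3.66, ApoE values of 5.87, 5.70 and 5.76 and MI values of 1.21, 2.80 and 2.49. Its ApoE libraries were the highest 3, MI2 lay below the controls, and the log2 fold changes were 0.75, 1.63 and 0.22. Of 28 genes of NF-kB and cytokine response, 4 were above 0 in all 3 diseases and 7 below, with a median of -0.07. Over all tested genes, 18.1% were above throughout and 18% below.

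Stress and housekeeping lists gave small medians. Genes of the unfolded protein and integrated stress response had 13 of 25 members above 0 in all 3 diseases and 5 below, against 18.1% and 18% of all tested genes, with a median of 0.16. Their per-disease medians were 0.05 in HTN, 0.16 in ApoE and 0.13 after MI. *Slc3a2*, the heavy chain of amino acid transporters induced by this response, had controls of 139, 135 and 150 CPM and disease libraries of 168, 163 and 197 in HTN, 163, 198 and 196 in ApoE and 167, 176 and 150 after MI, a log2 fold change of 0.31 ± 0.12 (SE). *Herpud1*, a gene of protein degradation at the endoplasmic reticulum, had 0.42 ± 0.20. Across the 26 mitosis genes 1 was above 0 throughout and 6 below, and among 26 genes of DNA replication 4 were above and 3 below. Ribosomal protein genes had a median of -0.00382, and nuclear genes of oxidative phosphorylation one of -0.00625.

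Interferon response genes differed in direction between the diseases. Of 48 tested, 5 were above 0 in all 3 diseases and 2 below, against 18.1% and 18% of all tested genes. The median was 0.57 in ApoE, -0.10 in HTN and -0.29 after MI, and 0.04 for the mean of diseases, and 4 of them differed among the diseases. *Rsad2*, an antiviral enzyme, measured 177, 117 and 173 CPM in controls, 219, 153 and 198 in HTN, 283, 404 and 368 in ApoE and 118, 174 and 149 after MI. *Cd274*, the checkpoint ligand PD-L1, had log2 fold changes of 0.29, 1.37 and -0.30 in HTN, ApoE and MI. *Abca1*, the pump for cholesterol efflux, had -0.03, 1.77 and -0.09. Of 24 genes of cholesterol synthesis and efflux 0 were above 0 throughout and 6 below, among them *Hmgcs1* of sterol synthesis with -0.28 ± 0.13 (SE), or -0.18 without control replicate 4.

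Over all 13 cell type lists and 26 pathway lists, 0 members passed the test for the mean of diseases. The medians of the lists ran from 0.35 for macrophages to -0.24 for B and plasma cells. The cell lists were more spread between diseases than the mean shows, as the neutrophil list had medians of -0.38 in HTN, -0.40 in ApoE and 0.23 after MI.

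**Figure D5:**
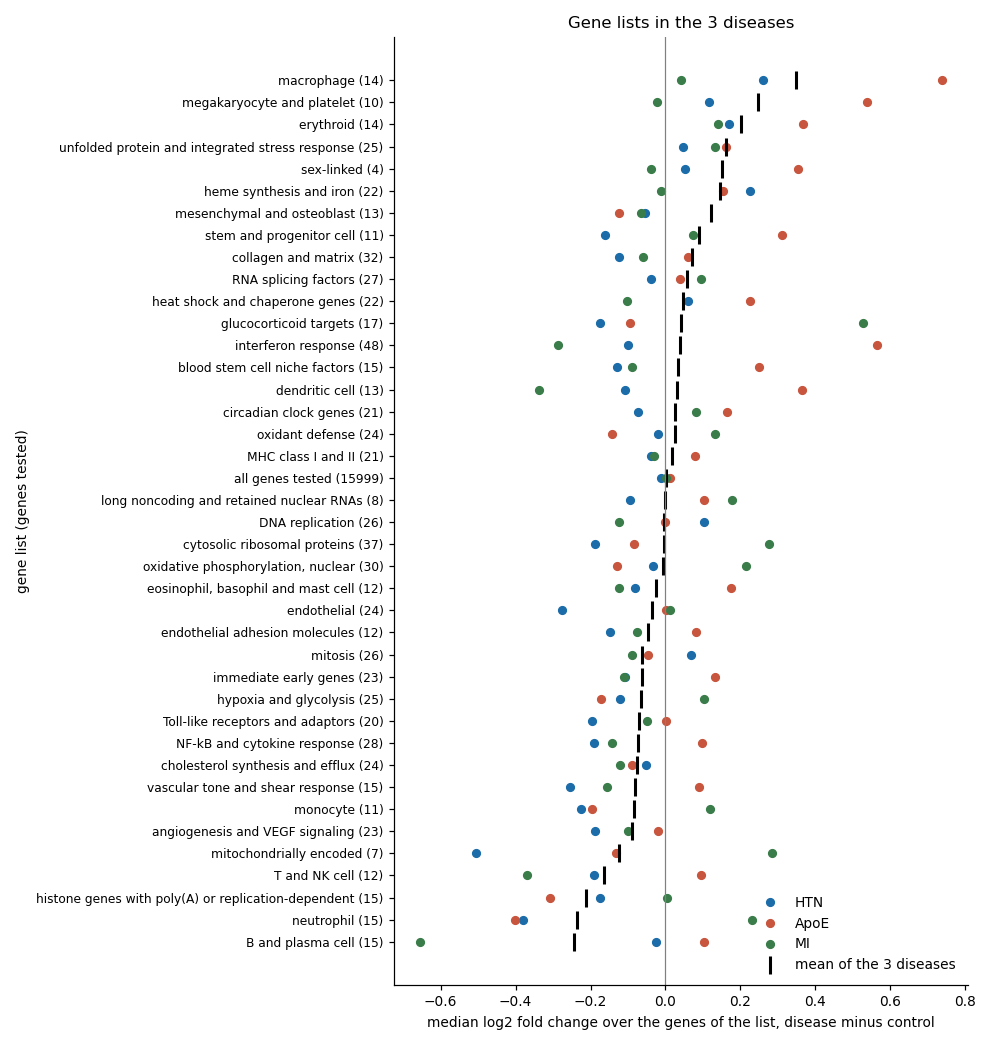
Median log2 fold change against controls (x axis) over the tested genes of each list (y axis, number of genes in brackets), for each disease and for their mean. The macrophage list is at the top with 0.35 for the mean and the B and plasma cell list at the bottom with -0.24, and for the interferon response list the ApoE and MI points lie on opposite sides of 0.

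The 3 diseases differed from each other for 24 genes (0.15%) at an adjusted p under 0.05 (edgeR quasi-likelihood test). ApoE had the largest change for 23 of them. The exception was *Vcan*, versican, a proteoglycan of the matrix, with log2 fold changes of -0.72 in HTN, -0.68 in ApoE and 2.08 after MI. Its MI libraries measured 81.7, 16.8 and 26.2 CPM against 6.73, 16 and 6.90 in controls. Against controls alone, HTN had 0 genes at an adjusted p under 0.05 (594 at an unadjusted p under 0.05), MI had 0 (448) and ApoE had 23 (955), of which 17 were higher. These counts come from comparisons that share the control libraries, and the difference between them was not tested.

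The absence of a call has to be read against the precision of the mean. For 12455 of the 15999 genes (77.8%) the 95% interval of the log2 fold change lay within a 2-fold difference in either direction, and for 7809 (48.8%) within a 1.5-fold difference. Among the 8800 genes of at least 10 CPM these shares were 95.6% and 77.5%, and among the 2572 genes under 1 CPM 23% and 0.311%. For most genes under 1 CPM the interval thus still holds a 2-fold difference in at least 1 direction, and for most genes of at least 10 CPM it does not.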

How the data were processed

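Polyadenylated RNA of cells flow-sorted as bone marrow endothelial cells was sequenced in 12 libraries. The authors deposited raw counts per Ensembl gene. Per the labels and the methods, these were made from single-end reads of a strand-marking kit with STAR 2.7.3a (GeneCounts) on GRCm38.p6. Which of STAR's strand columns was taken is not stated, and so reads of genes that overlap on opposite strands may not be separable. No normalization precedes these counts. The table holds 55421 genes, of which 55154 have a symbol in the annotation used here (GENCODE M21, GRCm38). All 12 columns were used, 0 were left aside.

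Counts were analysed in R 4.3.3 with edgeR 4.0.16. Genes passing filterByExpr (15999, with 99.9% of the counts) were scaled by TMM and fitted with 1 coefficient per group, with a common dispersion of 0.0634 and 8 residual degrees of freedom. The contrast took 0.333 of each disease coefficient minus the control coefficient and was tested by glmQLFTest, two-sided, with Benjamini-Hochberg adjustment and a threshold of 0.05. An F-test of the 3 disease coefficients asked whether the diseases differ. The SE is the log2 fold change divided by the root of F. Scripts were tested on simulated counts first. Since the labels do not name separate cultures or cages, the p-values measure the spread between these mice. Marker sums were compared by exact permutation of library labels (220 arrangements) on log2 CPM of the library total.

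Genes named are, per direction, the 10 of smallest p with the same sign in all 3 diseases. Predicted models, pseudogenes and immunoglobulin segments were named only among the first 3. To these were added up to 3 members of a gene list by smallest p, *Apoe*, and genes said to be chosen after their values were seen. *Clec7a*, annotated as a polymorphic pseudogene, was kept. The contrast, the 39 gene lists and the rules were chosen with earlier results of these data known. Alternatives were the likelihood-ratio test, DESeq2 1.42.0, a robust prior, RLE factors, other filters, a pooled disease coefficient, a replicate block, marker shares as covariates, other thresholds, and leaving out a disease or a library.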

Additional observations from a re-analysis of the deposited data

Results flagged for a closer look

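The following genes named in the report had effects that differed between HTN, ApoE and MI in the test of the difference among the 3 diseases (edgeR quasi-likelihood test, Benjamini-Hochberg adjusted over 15999 genes). *Apoe*, the deleted gene, had an adjusted p of 0.000173 and log2 fold changes of -0.18, -6.20 and 0.26 in HTN, ApoE and MI. *Ceacam19*, its neighbor on chromosome 7, had 0.0344, with no count in the ApoE libraries. *Abca1* had 0.00233 and *Cd274* 0.0278, both above controls in ApoE (1.77 and 1.37) and near or below them after MI (-0.09 and -0.30). *Vcan* had 0.0486, with its largest change after MI (2.08). *Vsig4* had 0.0369 and was the only one of these 6 genes with the same sign in all 3 diseases (1.17, 4.89 and 1.84). Its HTN libraries overlapped controls, so a direction common to all 3 is not established.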

How the results depend on the processing

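Of 30 alternative settings, 12 called at least 1 gene in the mean of the diseases, against 0 genes in the fit reported. In 9 settings a called gene had the same sign in each disease of that fit. These include the fits without the ApoE and without the MI libraries, which hold 2 diseases only. The likelihood-ratio test gave 2 higher and 7 lower (2 and 5 shared), and DESeq2, which left 28 adjusted p values as NA, gave 3 higher and 5 lower (3 and 4 shared). Without a filter beyond 1 count, 36003 genes were tested and 96 were higher and 41 lower (74 and 38 shared). The erythroid covariate gave 1 higher and 2 lower (1 and 1 shared), and the neutrophil covariate 1 higher and 0 lower (1 and 0 shared), the higher gene being *Ighv14-3* in both. With immunoglobulin and hemoglobin genes left out, without the HTN libraries, and at an adjusted p under 0.1, the count was 0 higher and 1 lower (0 and 0 shared), and the gene was *Apoe*. Without the ApoE libraries 1 gene was lower and shared between HTN and MI (*Igkv8-27*), and the log2 fold change of *Apoe* reversed to 0.0443. Without the MI libraries 1 gene was lower and shared between the other 2 diseases (*Apoe*). The cause of these changes was not tested.

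Leaving out single libraries gave 0 higher genes each time and between 0 and 1 lower genes, of which between 0 and 1 were shared (*Ighv11-2* without control replicate 4, *Apoe* without MI replicate 2). At an unadjusted p under 0.05, the counts ran from 107 higher and 105 lower without control replicate 3 to 326 higher and 342 lower without ApoE replicate 4. The paired check found that 6 of 18 pairs of libraries with the same number had deviations correlated over 0.1 (-0.336 to 0.342, median -0.0277). The 36 other pairs ran from -0.346 to 0.467 (median 0.0138). No pairing by number was seen, but with 3 libraries per group this check cannot exclude a shared day or batch. The fit with the replicate block gave 0 higher and 0 lower (166 and 152 at an unadjusted p under 0.05, 0 and 0 shared). The robust prior, RLE factors, at least 10 counts in every library, the pooled coefficient, the macrophage and B cell covariates and the 1.5-fold minimum also gave 0. Over the 20 leading genes and *Apoe*, 552 of 580 refitted values kept their direction and side of the threshold, 27 came past the threshold and 1 reversed. Of 130 other genes refitted, many of them not named in the text, 27 took the opposite sign under at least 1 alternative. Among the 27 were *Abca1*, *Cd274*, *Cdh5*, *Pecam1* and *Vcan*, which are named. Depth limits genes under 1 CPM most.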

Other observations

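Gene lists outside the comparisons above also had 0 members past the test (edgeR quasi-likelihood test), and their values are given here with no explanation. Over all tested genes, 18.1% were above 0 in all 3 diseases and 18% below. Of 10 megakaryocyte and platelet genes, 3 were above 0 in all 3 diseases and 1 below, with a median log2 fold change of 0.25. *Vwf*, the adhesive protein of platelets and endothelium, had 0.34 in HTN, 0.84 in ApoE and 0.05 after MI, and *Itga2b*, the platelet integrin, had 0.13, 0.71 and 0.12. Leaving out single libraries moved the mean of diseases between 0.23 and 0.80 for *Vwf* and between 0.07 and 0.86 for *Itga2b*, lowest without control replicate 3 and highest without control replicate 2. Of 11 stem and progenitor cell genes, 2 were above 0 throughout and 1 below. *Meis1*, a transcription factor of stem cells and megakaryocytes, had 0.29 in HTN, 0.88 in ApoE and 0.05 after MI, and the mean was 0.27 without control replicate 4 and 0.67 without control replicate 2. Of 12 eosinophil, basophil and mast cell genes, 1 was above throughout and 3 below, the former being *Cpa3*, a mast cell protease, with 0.28, 0.98 and 0.07. The 3 genes *Vwf*, *Meis1* and *Cpa3* had their largest value in ApoE and their smallest after MI.

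The counts in this paragraph stand beside 18.1% of all tested genes above 0 in all 3 diseases and 18% below. Histone genes had 6 of 15 members below 0 in all 3 diseases and 0 above, with a median of -0.21. Genes of RNA splicing had 7 of 27 above and 2 below, Toll-like receptors and adaptors 3 of 20 above and 6 below, and collagen and matrix genes 3 of 32 above and 8 below. Glucocorticoid targets had a median of 0.53 after MI against -0.18 in HTN and -0.10 in ApoE. *Cdkn1a*, the p21 inhibitor of the cell cycle, lay above controls in all 3 diseases with 0.23, 0.22 and 0.53, and its mean of 0.33 was 0.51 without control replicate 3. Transcripts encoded by mitochondria had medians of -0.51 in HTN, -0.13 in ApoE and 0.29 after MI, and 0 of 7 had the same sign in all 3. The circadian genes had 3 of 21 above and 4 below, among the latter *Arntl*, a core activator of the clock, with -0.33 in HTN, -0.17 in ApoE and -1.01 after MI. The hour of collection is not given in the labels.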
